A study of Mus musculus with 9 samples.

Results

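Neuronal and synaptic genes were followed in mouse embryonic orofacial tissue, the tissue of the developing face and palate, on gestation days (GD) 12, 13 and 14. A list of 39 genes was drawn up from knowledge of nerve cells. A gene was kept when the array annotation named it as the single symbol of a probe set, and its brightest probe set over the 9 arrays stood for it. This gave 37 genes of the 8251 with such a probe set, while Syn1 and Cntn2 had none. The list was written with earlier results of these arrays known, and Mapt, Napb, Ppp1r17 and Myt1 head it because they had already been seen to be lower on GD14.

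Each day had 3 arrays of total RNA, numbered 1 to 3 in the sample titles. The labels give no strain, no dissection limits and no statement that arrays came from separate litters, so p-values measure only the spread between these samples. Markers of facial mesenchyme with a probe set, 11 of 12, had a summed intensity of 6564 to 8019 on GD12, 7263 to 7870 on GD13 and 11088 to 12516 on GD14. The sum was carried by the collagen gene Col1a1, which rose (log2 2.49, adjusted p = 0.000324), while 8 of the 11 were lower on GD14 by mean log2 value (median -0.32) and Msx1 fell. Those of oral epithelium, 9 of 10, had sums of 762 to 909, 944 to 1075 and 1106 to 1403, and 2 of 7 tested rose. Markers of skeletal muscle, 10 of 10, had 824 to 960, 1131 to 1233 and 1855 to 2872. Of these 5 of 10 rose from GD12 to GD14 and 0 fell, with a median log2 of 1.31, and their part in the neuronal differences was not tested. Median intensity lay between 47.15 and 56.95 on all arrays. In bulk tissue, fewer cells of a type and less RNA per cell cannot be told apart.

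Neurons of the face lie mostly outside it: sensory axons of the trigeminal ganglion and motor axons of the brainstem grow into the facial processes, while cell bodies stay in ganglia and brain. Young neurons first use basic helix-loop-helix and homeodomain factors, then RNA-binding proteins of the Elavl family, and then the tubulins, filaments and vesicle proteins of a growing axon. Whether a given dissection holds ganglia, olfactory epithelium or only nerve fibres decides which of these transcripts it carries. The genes were therefore taken by role: 4 neurogenic transcription factors, 3 RNA-binding proteins, 9 microtubule and growth cone genes, 5 intermediate filament genes, 3 adhesion molecules, 7 vesicle and membrane fusion genes, 3 receptor and enzyme genes and 3 genes of secretory granules.

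Most of these genes were dim. By mean intensity they ranged from Map1b at 4.68 to Tubb3 at 840, and 11 had a mean of 100 or more. Values were compared as log2(intensity + 3) in limma, fitted to the 9326 probe sets whose mean log2 value exceeded the 25th percentile (equal to an intensity of 10.4). Of the 37 genes, 32 were among them, and Elavl3, L1cam, Map1b, Syp and Syt1 were too dim to be tested.

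**Figure D1:**
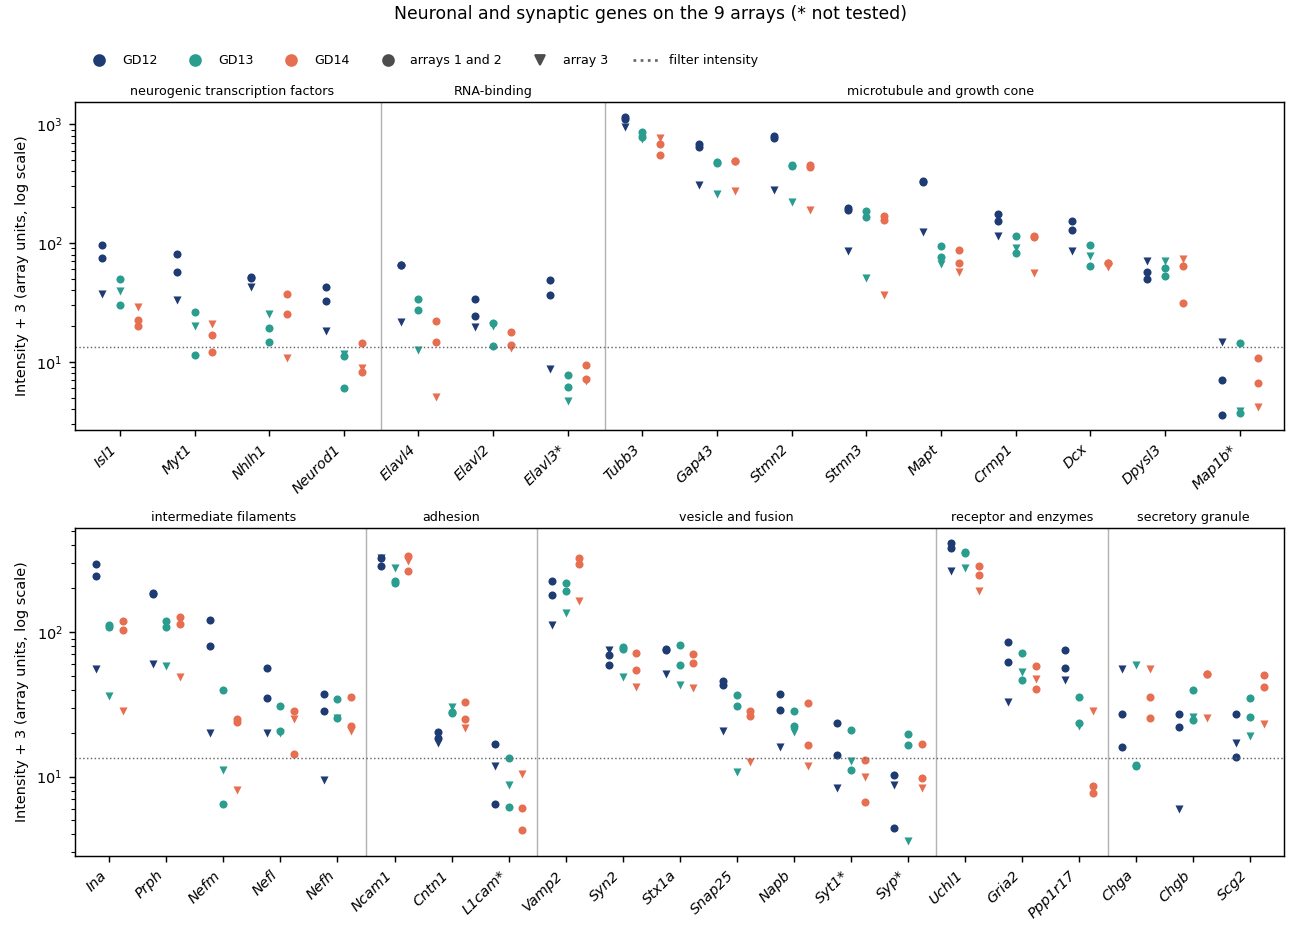
Intensity plus 3 of each of the 37 genes on each of the 9 arrays (log scale), grouped by role, with circles for arrays 1 and 2 and triangles for array 3 of a day, and a dotted line at the filter intensity of 10.4. Gap43, Stmn2, Stmn3, Ina and Prph had their lowest value of every day on array 3, whereas in Isl1, Myt1 and Neurod1 all GD14 values lay under all GD12 values.

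Between GD12 and GD14, 3 of the 32 tested genes fell and 0 rose (adjusted p under 0.05, limma with Benjamini-Hochberg adjustment over all tested probe sets). Mapt, Ppp1r17 and Myt1 were the 3, and each belongs to the 4 genes that head the list for having been seen to be lower. Over all tested probe sets 1.06% fell and 3.24% rose. Of the other 28 tested genes 0 passed, with a smallest adjusted p of 0.0547 for Isl1, and 12 had an unadjusted p under 0.05, 9 of them lower on GD14. Such a p was found in 1628 of all 9326 tested probe sets, 676 of them lower on GD14. The median log2 difference over the 37 genes was -0.59, against -0.015 over the 8251 genes. It was -0.56 over the 33 genes left without those 4. In 30 genes the GD14 mean log2 value was lower and in 7 higher. All 3 values of GD14 lay under all 3 of GD12 in 9 genes and above them in 1, where 10.3% and 12.1% of all tested probe sets were so separated. All 10 were among the tested genes. Without the 4 genes that head the list, 26 of 33 had a lower GD14 mean log2 value, and 6 of the 28 tested were separated downward. The count of 3 changed when 1 array was left out: 0 genes passed without replicate 1 or 2 of GD12, replicate 3 of GD13, or replicate 1 or 2 of GD14. It was 1 without replicate 1 or 2 of GD13 or replicate 3 of GD14, and 5 without replicate 3 of GD12. Leaving out a GD13 array does not alter the difference between GD14 and GD12, only the estimate of the spread and the adjustment. A lost call therefore does not by itself show that the difference rested on the array left out. None of these fits used the replicate number, although arrays with the same number varied together. With it as a block Mapt, Stmn2, Ina and Elavl4 passed, and Ppp1r17 and Myt1 did not. That fit called 6.65% of all tested probe sets in either direction.

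By median, more of the difference lay in the first step than in the second. The median log2 difference of the 37 genes was -0.42 from GD12 to GD13 and -0.13 from GD13 to GD14, the latter 0.16 without GD14 replicate 3. In neither step did a gene pass. From GD12 to GD13 the smallest adjusted p was 0.125 (Neurod1 and Mapt), and 9 of 32 had an unadjusted p under 0.05. From GD13 to GD14 the smallest was 0.681 (Ppp1r17), and 1 had an unadjusted p under 0.05. Over all tested probe sets 0.0751% fell and 0.568% rose in the first step, and 0.0107% fell and 0.0322% rose in the second. An unadjusted p under 0.05 was found in 1023 of 9326 in the first step and in 670 in the second. The limma F-test over the 3 days called 0 of the 32 genes (11 at an unadjusted p under 0.05, smallest adjusted p 0.0641 for Mapt) against 2.58% of all tested probe sets. The test of the second step minus the first called 0 genes (3 at an unadjusted p under 0.05) and 0% of all tested probe sets, so unequal steps were not shown for any single gene.

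**Figure D2:**
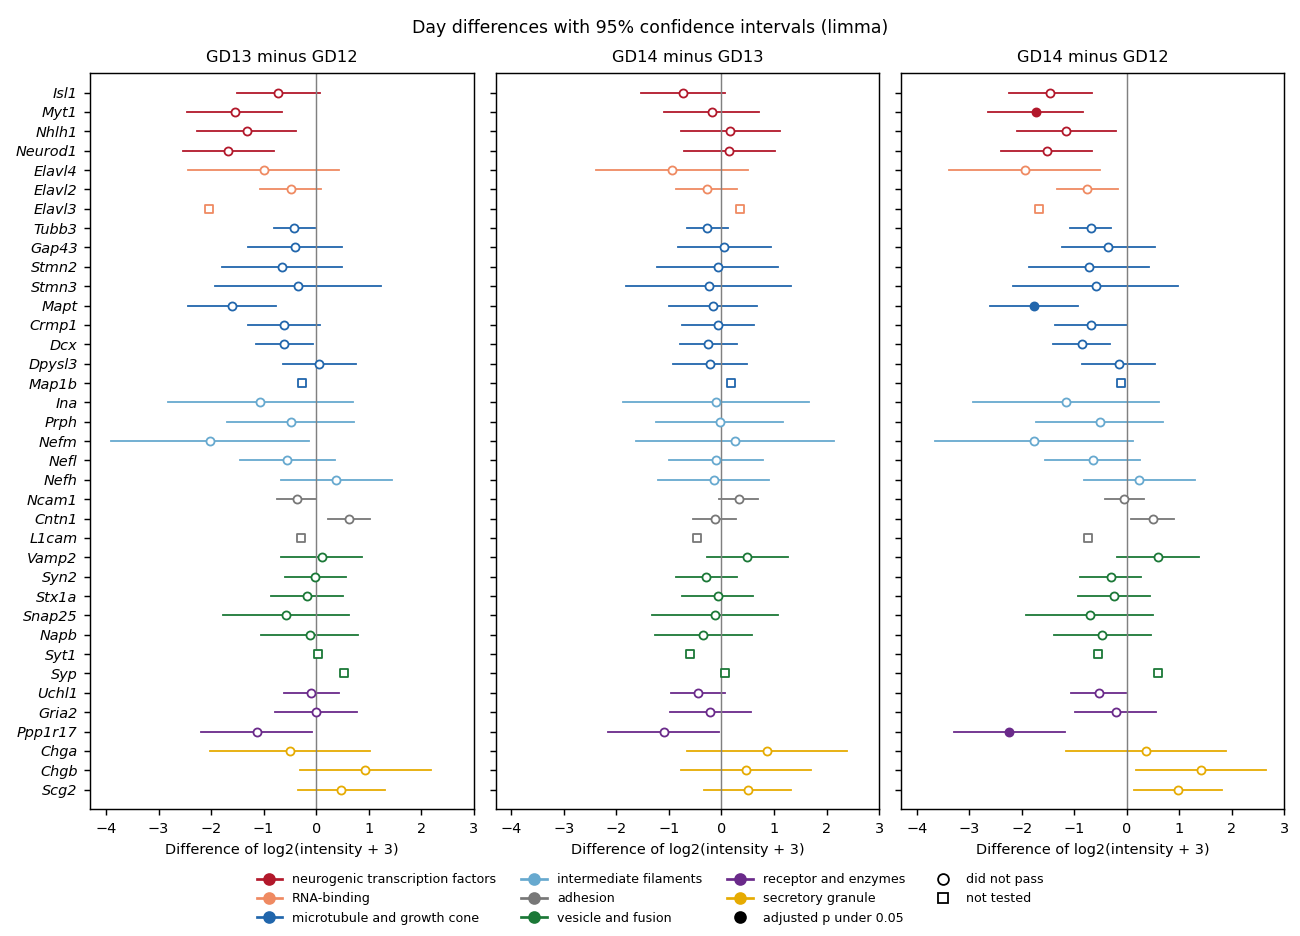
Differences of log2(intensity + 3) between days for the 37 genes, with 95% confidence intervals from limma for the 32 tested ones. Filled points passed at an adjusted p under 0.05 and squares were not tested. Mapt, Myt1 and Ppp1r17 are the 3 filled points, all in the panel of GD14 minus GD12.

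The neurogenic transcription factors were the group in which GD12 and GD14 separated in every gene. Neurod1, Nhlh1, Isl1 and Myt1 each had all GD14 values under all GD12 values, and their median log2 difference was -1.49. Their 2 daily steps differed, at log2 -0.72 and -0.73 in Isl1, -1.55 and -0.18 in Myt1, -1.67 and 0.15 in Neurod1, and -1.32 and 0.17 in Nhlh1. The promoters of these 4 genes are shown because all 4 were separated downward between GD12 and GD14. The promoters are windows from 250 bases before to 50 bases after a RefSeq transcript start (GRCm38.p6), 5′ to 3′ on the gene's strand. Capitals mark any CAGATG, read on either strand. They also mark any CAGCTG, which reads the same on both strands. Both are E-boxes, the motif bound by basic helix-loop-helix factors, and the pair do not overlap in these windows. Neurod1 lies at chr2:79456587-79456886 (minus strand), Nhlh1 at chr1:172057547-172057846 (minus), Isl1 at chr13:116309639-116309938 (minus) and the first of 3 Myt1 starts at chr2:181763082-181763381 (plus).
Neurod1: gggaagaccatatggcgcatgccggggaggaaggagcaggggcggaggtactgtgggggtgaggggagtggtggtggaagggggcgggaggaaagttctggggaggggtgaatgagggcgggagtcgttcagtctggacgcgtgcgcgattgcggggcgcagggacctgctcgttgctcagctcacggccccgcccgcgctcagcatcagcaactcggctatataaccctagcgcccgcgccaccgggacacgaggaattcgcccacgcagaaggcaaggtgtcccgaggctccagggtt
Nhlh1: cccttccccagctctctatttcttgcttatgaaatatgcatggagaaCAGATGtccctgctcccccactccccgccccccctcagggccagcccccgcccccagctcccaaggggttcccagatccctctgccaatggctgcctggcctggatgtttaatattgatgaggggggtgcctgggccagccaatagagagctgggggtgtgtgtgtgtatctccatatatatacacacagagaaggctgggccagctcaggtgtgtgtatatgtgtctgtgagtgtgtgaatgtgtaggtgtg
Isl1: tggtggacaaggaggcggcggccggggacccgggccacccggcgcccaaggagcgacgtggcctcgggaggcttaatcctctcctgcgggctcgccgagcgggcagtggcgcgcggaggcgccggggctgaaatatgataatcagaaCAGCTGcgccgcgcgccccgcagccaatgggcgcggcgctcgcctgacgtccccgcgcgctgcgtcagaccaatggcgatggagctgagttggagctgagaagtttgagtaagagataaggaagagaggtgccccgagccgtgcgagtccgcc
Myt1: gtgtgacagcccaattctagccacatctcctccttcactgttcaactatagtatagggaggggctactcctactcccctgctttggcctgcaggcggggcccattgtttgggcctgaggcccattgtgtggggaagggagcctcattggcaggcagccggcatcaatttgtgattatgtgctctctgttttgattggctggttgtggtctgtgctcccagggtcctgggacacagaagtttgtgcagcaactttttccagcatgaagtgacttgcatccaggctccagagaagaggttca

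The Nhlh1 window held 1 CAGATG and the Isl1 window 1 CAGCTG, whereas the Neurod1 and Myt1 windows held neither. A window was found for 26 of the 37 genes, 43 windows in all since some genes have several starts that overlap. CAGATG on either strand stood in 20.9% of these windows and in 17.2% of the 32851 windows of all genes, and CAGCTG in 27.9% and 16.3%. These are descriptions of the letters in short windows and not of binding.

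Neurod1, a basic helix-loop-helix factor that drives neuronal differentiation, had intensities of 29.3, 39.9 and 15.1 on GD12, followed by 8.2, 3.0 and 8.6 on GD13 and by 5.3, 11.3 and 5.9 on GD14 (arrays 1, 2 and 3 here and below). It was low from GD13 on, with 5 of the 6 later arrays at or under the filter intensity. Its log2 difference from GD12 to GD14 was -1.52 (SE 0.38, adjusted p = 0.0621). With 2 of 3 GD14 values under the filter intensity this size too depended on the added value, at -1.74 with 1 and -1.04 with 11 (adjusted p = 0.0776 and 0.0492), and no fold is given. Nhlh1, a helix-loop-helix factor of newly born neurons, went from 45.4 ± 4.83 to 16.8 ± 5.42 and 21.6 ± 13.4 (SD, n = 3 each; log2 -1.15, adjusted p = 0.187). Isl1, a LIM homeodomain factor of sensory and motor neurons, had 93.8, 71.5 and 34.3 on GD12, followed by 27.4, 46.7 and 36.6 on GD13 and by 19.5, 16.9 and 26.1 on GD14. The GD13 values lay between, and array 3 of GD12 was within their range. The log2 difference of Isl1 was -1.46 (SE 0.35), with an adjusted p of 0.0547 and of 0.0416 without the third array of every day.

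Myt1, a zinc finger factor of neural progenitors, had 54.3, 77.3 and 30.2 on GD12, followed by 8.5, 23.5 and 17.1 on GD13 and by 13.7, 9.0 and 17.9 on GD14. Every GD13 and GD14 value was under the lowest of GD12. Its log2 difference was -1.73 (SE 0.40, adjusted p = 0.0473). The call ended with the replicate number as a block (adjusted p = 0.0621), without the third arrays (adjusted p = 0.0816) and in 7 of the 9 fits that left out 1 array, up to 0.149 without GD14 replicate 2. The call also ended without the filter, with the actin ratio as a covariate and with only the compared days. With 1 GD14 value under the filter intensity, the size depended on the added value. The difference was -1.87 with 1 and -1.35 with 11 in place of 3 (limma adjusted p = 0.0553 and 0.0314).

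The RNA-binding Elavl genes, whose proteins bind transcripts of differentiating neurons, had a median log2 difference of -1.68 from GD12 to GD14, and 0 of 2 tested passed. Elavl4 had 62.8, 62.6 and 18.8 on GD12, followed by 24.2, 31.1 and 9.7 on GD13 and by 11.7, 18.9 and 2.1 on GD14. On each day array 3 was the lowest, and within each number the values fell from GD12 to GD14. Its log2 difference was -1.95 (SE 0.64, adjusted p = 0.147), with an adjusted p of 0.00308 in the fit with the replicate number as a block. Elavl2 had 30.5, 21.4 and 16.5 on GD12, followed by 10.7, 18.3 and 17.1 on GD13 and by 11, 15.0 and 10.1 on GD14 (log2 -0.76, adjusted p = 0.161). GD12 and GD14 did not overlap. The untested Elavl3 had 33.3, 45.7 and 5.8 on GD12 and between 1.7 and 6.5 on the other 6 arrays, so it was above the filter intensity on 2 arrays, both of GD12. In a fit without the filter its log2 difference from GD12 to GD14 was -1.68 (adjusted p = 0.206).

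Among the 9 microtubule and growth cone genes 1 fell, Mapt, which encodes the axonal microtubule protein tau. It had 322.0, 328.7 and 121.4 on GD12, followed by 90.8, 73.7 and 63.7 on GD13 and by 84.5, 65.3 and 54.4 on GD14. All later values were under the lowest of GD12, and GD13 and GD14 overlapped. The mean went from 257 ± 118 to 68.1 ± 15.2 (SD, n = 3 each), so that GD14 had 26.4% of the GD12 mean. On the log2(intensity + 3) scale the difference was -1.76 (SE 0.37, adjusted p = 0.032), a fitted fold of 3.39. With the replicate number as a block the adjusted p was 0.0132 and without the third arrays 0.018. Leaving out 1 array at a time ended the call in 8 of 9 fits (highest adjusted p 0.112, without GD12 replicate 1), and without GD12 replicate 3 it held (log2 -2.23, adjusted p = 0.00382). Neither dimmer Mapt probe set passed: their log2 differences were -0.96 (adjusted p = 0.0761) and -0.28 (adjusted p = 0.831).

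Tubb3, the neuronal class of beta-tubulin, was the brightest of the 37 genes, with 1098.3, 1153.6 and 934.7 on GD12, followed by 853.3, 776.9 and 750.8 on GD13 and by 680.4, 546.2 and 761.3 on GD14. GD12 stood above all later arrays. Its log2 difference was -0.69 (SE 0.17, adjusted p = 0.0612), and that of its dimmer probe set was -1.38 (adjusted p = 0.07). Both probe sets carry the array maker's mark for sequence families, so signal from other tubulins cannot be told apart. Dcx, a microtubule protein of migrating neurons, went from 120 ± 33.9 to 76.4 ± 16.7 and 62.8 ± 2.86 (SD, n = 3 each; log2 -0.86, adjusted p = 0.0898), also without overlap between GD12 and GD14. Crmp1, a semaphorin signalling protein of growth cones, went from 144 ± 30.5 to 92.7 ± 16.0 and 92.0 ± 33.4 (SD, n = 3 each; log2 -0.69, adjusted p = 0.284).

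Gap43, a growth cone membrane protein, had 676.8, 643.1 and 303.5 on GD12, followed by 479.8, 464.6 and 254.6 on GD13 and by 483.4, 487.6 and 268.7 on GD14. Array 3 had 46.0%, 53.9% and 55.4% of the mean of the other arrays on GD12, GD13 and GD14, and all days overlapped (log2 from GD12 to GD14 -0.35, SE 0.39, adjusted p = 0.722). Stmn2, a growth cone regulator of microtubules, had 794.7, 765.5 and 275.6, then 444.6, 448.9 and 216.5, then 433.8, 452.2 and 188.0. Its log2 difference from GD12 to GD14 was -0.72 (SE 0.51, adjusted p = 0.53), and with the replicate number as a block its adjusted p was 0.032. Its dimmer probe sets had log2 differences of -0.32 and 0.67 (adjusted p = 0.808 and 0.302), and the mean over its probe sets had -0.13. Stmn3, of the same stathmin family, showed a wider gap between arrays than between days, since array 3 had 43.6%, 27.3% and 21.1% of the mean of the others (log2 from GD12 to GD14 -0.59, adjusted p = 0.742). Dpysl3, a growth cone protein that other embryonic cells also express, had its highest value of every day on array 3 (56.4 ± 10.7, 58.7 ± 8.70 and 53.0 ± 21.7; SD, n = 3 each; log2 -0.16, adjusted p = 0.853). The untested Map1b stayed at or under 11.8 on all arrays.

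Of the intermediate filament genes 0 of 5 passed, and in 3 of them array 3 stood farther from the other arrays of its day than GD14 from GD12. How often this held over all tested probe sets was not taken. Ina, which encodes alpha-internexin, an early neuronal filament, had 239.7, 292.1 and 52.1 on GD12, followed by 108.0, 106.1 and 32.8 on GD13 and by 115.8, 101.0 and 25.5 on GD14. Array 3 had 19.6%, 30.6% and 23.5% of the mean of the other arrays. The log2 difference from GD12 to GD14 was -1.16 (SE 0.78, adjusted p = 0.506), and with the replicate number as a block the same difference had an adjusted p of 0.0169. Prph, the filament protein of peripheral sensory and motor neurons, had 181.5, 182.4 and 56.7, then 116.0, 105.2 and 55.3, then 111.0, 124.1 and 45.5 (log2 -0.51, adjusted p = 0.694). Here too array 3 was lowest on each day, and all days overlapped. Nefm, the medium neurofilament, had 118.3, 76.5 and 17.1 on GD12 and between 3.5 and 36.8 on the other 6 arrays (log2 -1.77, adjusted p = 0.316). Nefl, the light neurofilament, had 32.1, 53.1 and 17.1, then 17.7, 27.7 and 16.9, then 11.4, 25.4 and 21.9 (log2 -0.65, adjusted p = 0.45). Nefh, the heavy neurofilament of mature axons, had 22.0 ± 14.3, 25.4 ± 5.05 and 23.1 ± 8.08 (SD, n = 3 each; log2 0.24, adjusted p = 0.854).

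The adhesion genes had a median log2 difference of -0.05, and 0 of 2 tested passed. Ncam1, an adhesion molecule of neurons that muscle and mesenchyme also carry, had 324.1, 280.9 and 321.1 on GD12, followed by 223.9, 216.1 and 276.2 on GD13 and by 331.8, 261.0 and 305.7 on GD14. All GD13 values were under those of GD12, and GD14 overlapped with GD12. The log2 difference from GD12 to GD14 was -0.05 with a 95% confidence interval of -0.42 to 0.33 (adjusted p = 0.924). Cntn1, an axonal contactin, had 15.5, 17.3 and 14.0, then 24.6, 24.8 and 27.3, then 21.9, 29.6 and 18.8. It was the 1 gene whose GD14 values all lay above GD12 (log2 0.49, SE 0.18, adjusted p = 0.193). The untested L1cam was at or under 13.7 on all arrays.

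Of the vesicle and fusion genes, whose proteins load and release transmitter, 0 passed of 5 tested. Vamp2, a vesicle SNARE, had 222.7, 178.3 and 109.3 on GD12, followed by 213.6, 189.8 and 133.0 on GD13 and by 293.7, 320.8 and 161.6 on GD14. Array 3 was lowest on each day, and within every number the GD14 value exceeded that of GD12 (log2 0.59, SE 0.34, adjusted p = 0.423). Its membrane partner Snap25 was 33.5 ± 13.9, 23.2 ± 13.7 and 19.4 ± 8.54 (SD, n = 3 each; log2 -0.71, adjusted p = 0.56). In Snap25, array 3 had 42.4%, 24.9% and 39.6% of the mean of the others. Stx1a, the syntaxin of the same complex, was 64.6 ± 14.4, 58.0 ± 19.6 and 54.5 ± 15.1 (SD, n = 3 each; log2 -0.25, adjusted p = 0.755). Syn2, which tethers vesicles, had 65.9, 56.4 and 72.0, then 76.3, 73.5 and 45.6, then 51.6, 68.1 and 38.9 (log2 -0.31, adjusted p = 0.609).

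Napb, an attachment protein that helps take SNARE complexes apart, depended on the probe set. Its brighter one, used here, had 25.7, 34 and 12.9 on GD12, followed by 19.5, 25.5 and 17.3 on GD13 and by 13.5, 29.4 and 8.9 on GD14, with overlap of all days (log2 -0.47, adjusted p = 0.623). The dimmer one had 20.1, 39 and 27.3, then 11.2, 17.9 and 14.5, then 2.8, 4.2 and 11.4, with GD14 under GD12 in all arrays (log2 -1.87, adjusted p = 0.0217). Its GD14 values of 2.8 and 4.2 lay under the filter intensity, so no fold is given. This dimmer probe set carries the array maker's mark for sequence families, so signal from related genes cannot be told apart. The vesicle proteins Syp and Syt1 were not tested, with 0.6 to 16.8 and 3.7 to 20.6 over the 9 arrays.

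Ppp1r17, a phosphatase inhibitor best known from Purkinje cells of the cerebellum, had 71.6, 53.3 and 43.8 on GD12, followed by 20.4, 32.6 and 19.3 on GD13 and by 4.7, 5.6 and 25.4 on GD14. GD12 was above all other arrays, and array 3 of GD14 stood among the GD13 values. The log2 difference was -2.24 (SE 0.47, adjusted p = 0.0312). Since 2 of the 3 GD14 values lay under the filter intensity, its size depended on the added value (-2.49 with 1 and -1.65 with 11 in place of 3), and no fold is given. The call ended with the replicate number as a block (adjusted p = 0.0528) and in 7 of the 9 fits that left out 1 array, up to 0.112 without GD14 replicate 1. The call also ended with the actin ratio as a covariate and with only the compared days. A dimmer, untested probe set had 52.0, 57.9 and 19.4 on GD12 and at most 7.9 later. Uchl1, an abundant neuronal ubiquitin hydrolase, had 411.6, 376.2 and 262.6, then 351.8, 351.0 and 272.4, then 281.3, 246.8 and 189.2 (log2 -0.54, SE 0.23, adjusted p = 0.265). Gria2, a subunit of AMPA-type glutamate receptors, had 58.8, 82.8 and 29.9, then 43.2, 68.8 and 49.5, then 37.5, 55.2 and 44.6, with overlap of all days (log2 -0.21, adjusted p = 0.817).

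The secretory granule genes had positive differences on the probe sets used, with a median log2 of 0.98, and 0 of 3 passed. Chgb, a granin, had 19.1, 24.1 and 3.0 on GD12, followed by 21.7, 36.4 and 23.0 on GD13 and by 48.6, 48.5 and 22.4 on GD14 (log2 1.41, SE 0.55, adjusted p = 0.219). Its value on array 3 of GD12 lay under the filter intensity. Leaving out 1 array gave log2 differences down to 0.73. The Chgb probe set used carries the array maker's mark for sequence families. Scg2, another granin, had 10.7, 24.3 and 14.1, then 22.7, 32.2 and 16.2, then 38.9, 47.1 and 20.2 (log2 0.98, SE 0.37, adjusted p = 0.204). Both were higher on GD14 than on GD12 within every number, while the days overlapped. Chga, the first known granin, had its highest value of every day on array 3, at 52.4, 55.8 and 52.8, with arrays 1 and 2 at 23.9 and 13.0, then 8.9 and 9.0, then 22.3 and 32.6 (log2 0.36, adjusted p = 0.847). Dimmer, untested probe sets of Chga and Chgb had log2 differences of -0.18 and 0.09, so they did not show a rise of that size. Pituitary and endocrine markers with a probe set, 7 of 10, had sums of 412 to 523, 386 to 545 and 485 to 719 on the 3 days, and 0 of 5 tested passed. Their part in the granule genes was not tested.

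**Figure D3:**
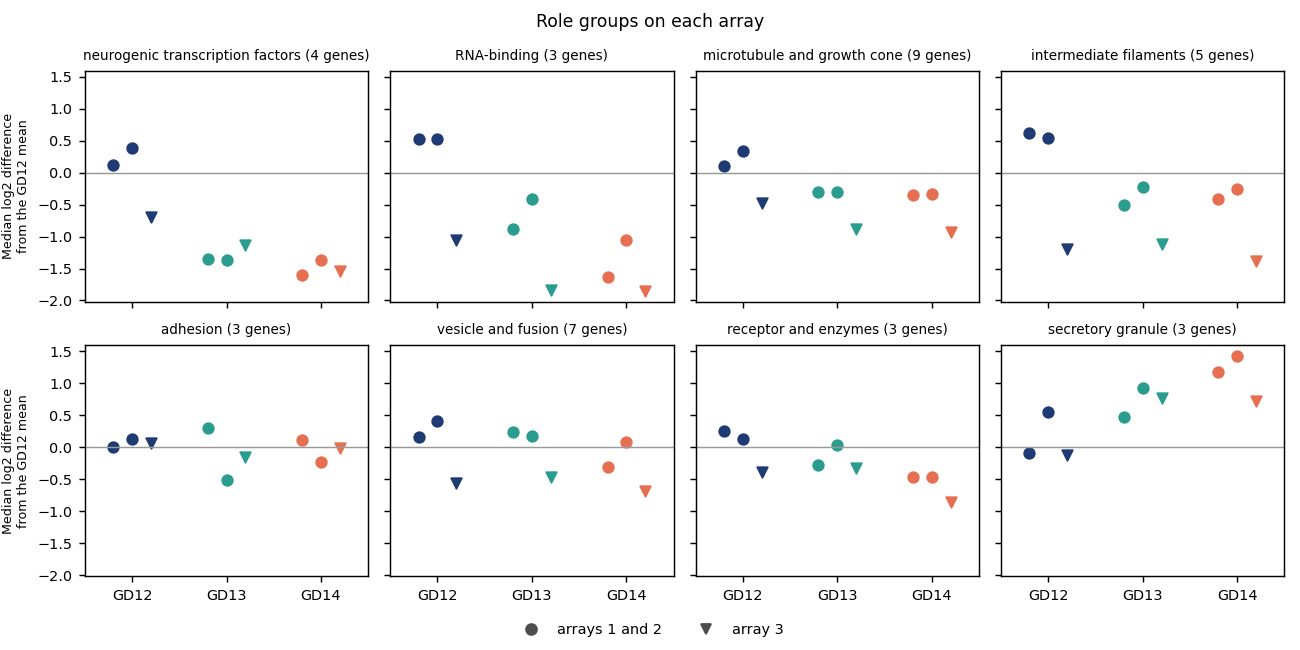
Median over the genes of each role group of the log2 difference from the GD12 mean, for each array, with circles for arrays 1 and 2 and triangles for array 3. The neurogenic factors were between -1.60 and -1.13 on all 6 arrays of GD13 and GD14, while the filament genes had -1.19, -1.12 and -1.39 on the third arrays and -0.51 or more on the others.

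The third array of each day was low in many of these genes. Of the 37 genes, 29 had their lowest GD12 value on array 3, 19 their lowest GD13 value and 25 their lowest GD14 value, where the shares of all tested probe sets were 35.2%, 36.5% and 39%. On all 3 days together this held for 13 genes (35.1%) against 11.5% of tested probe sets. The 13 were Mapt, Gap43, Stmn2, Stmn3, Ina, Prph, Elavl3, Elavl4, Napb, Snap25, Stx1a, Vamp2 and Uchl1. The difference between array 3 and the other arrays of its day was averaged over days. This average was larger in size than the difference between GD12 and GD14 in 17 of 37 genes. Among the 17 were 6 of 7 vesicle genes and 0 of 4 neurogenic factors, and also the dim, untested Syp and Map1b. The share of all tested probe sets with such a gap was not taken, so these counts do not set the genes apart. In the neurogenic factors this average hid gaps of opposite sign. On GD12 array 3 was the lowest in all 4, with 41.5% (Isl1), 43.6% (Neurod1), 45.9% (Myt1) and 82.8% (Nhlh1) of the mean of the others. Array 3 was the higher one on GD13 in Neurod1 (153.6%) and Nhlh1 (160.7%), and on GD14 in Myt1 (157.7%) and Isl1 (143.4%). Summed over the 37 genes, intensity was 5745, 5753 and 3324 on GD12, followed by 3772, 3839 and 2812 on GD13 and by 3692, 3597 and 2635 on GD14. By this sum array 3 of GD12 carried less than arrays 1 and 2 of the later days.

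**Figure D4:**
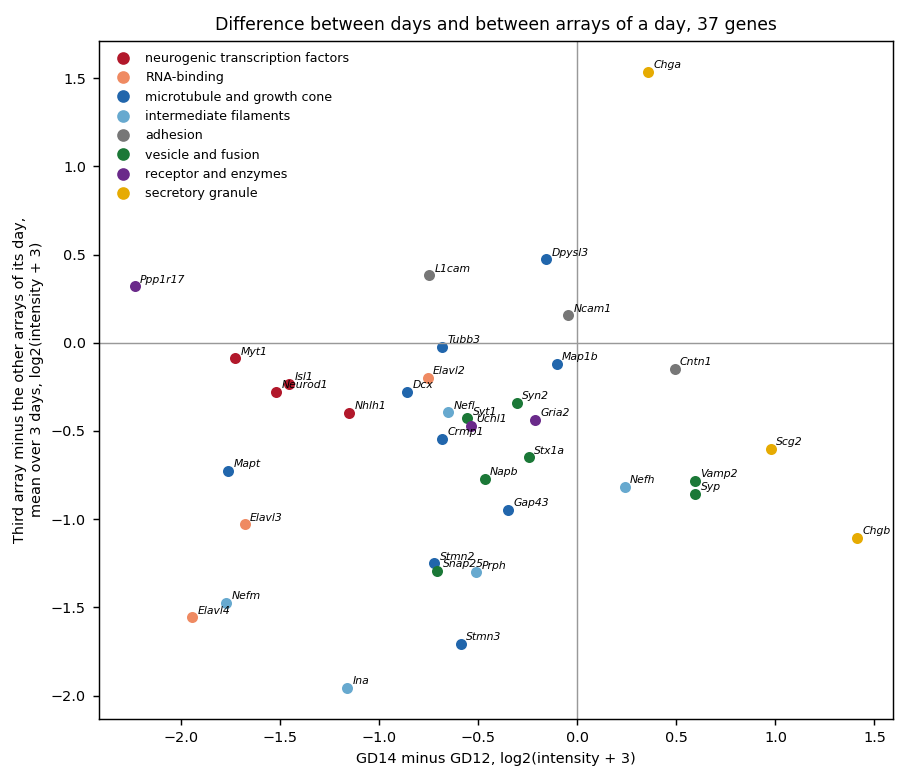
For each of the 37 genes, the log2 difference between GD14 and GD12 (horizontal) and the mean log2 difference between array 3 and the other arrays of the same day (vertical). The neurogenic factors lie to the left and near 0 vertically (group medians -1.49 and -0.26), and the filament genes lie low (group medians -0.65 and -1.30). For the neurogenic factors the vertical value averages gaps of opposite sign on different days, and on GD12 array 3 was the lowest in each of them.

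Other measures also set the third arrays apart. The ratio of 3′ to 5′ actin control signal was 1.42, 1.25 and 1.37 on the third arrays and 1.54 to 2.45 on the others. Among those others the ratio rose with gestation day. Array 1 went from 1.542 through 2.094 to 2.445, and array 2 from 1.765 through 2.225 to 2.292. The third arrays showed no such rise. Markers of Schwann cells and glia with a probe set, 11 of 15, had their lowest sum of each day on array 3, at 1061, 833 and 820, against 1188 to 1545 on the other arrays. The median over these genes of the log2 difference from the GD12 mean was lowest on array 3 of GD12 (-0.28) and GD13 (0.03). On GD14 this median was 0.39 on array 3, against -0.04 on array 1 and 0.91 on array 2. The olfactory neuron list, 7 of 9 and with Gap43 among them, had 431, 421 and 399 on the third arrays and 640 to 916 on the others. Gap43, already counted above, made up most of these sums, with 303.5, 254.6 and 268.7 on the third arrays. The defining marker of that list, Omp, had a mean of 8.4, under the filter intensity. Neural progenitor markers, 9 of 12, had 928, 1009 and 793 on the third arrays and 732 to 1018 on the others. For these markers array 3 had the highest sum of GD12 and of GD13, but the lowest of GD14. With the actin ratio as a covariate, Mapt, Stmn3, Snap25 and Elavl4 passed between GD12 and GD14, and without the third arrays Mapt, Ppp1r17, Stmn2, Ina, Elavl4 and Isl1 did. Those fits called 4.33% and 3.07% of all tested probe sets in either direction. The part of RNA quality and of dissection in these differences, between arrays and between days, was not tested.

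Arrays with the same number varied together across days, so the daily differences were also read within a number. From GD12 to GD14 the median log2 difference of the 37 genes was -0.69 in number 1, -0.60 in number 2 and -0.36 in number 3, against -0.03, 0.03 and -0.05 over all tested probe sets. Within all 3 numbers 23 genes (62.2%) were lower and 4 (10.8%) higher on GD14, where 22.2% and 20.6% of tested probe sets were. The 23 include Mapt, Napb, Ppp1r17 and Myt1, which were listed for having been seen to be lower. With the replicate number as a block 4 genes passed, all lower on GD14: Mapt, Stmn2, Ina and Elavl4. That fit called 6.65% of all tested probe sets in either direction, against 4.3% without the block. Mapt was the 1 gene called with and without the block.

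Further neuronal lists, of genes other than the 37, were read against the same background. They too were written with earlier results of these arrays known, so they are not independent of these data. Of 30 neurogenic and sensory transcription factors 18 had a probe set and 10 were tested. From GD12 to GD14, 3 fell and 0 rose, where 1.06% and 3.24% of all tested probe sets did, and the median log2 over the 18 was -0.35. Ebf3, a factor of olfactory and other neurons that mesenchyme also expresses, had 309.3, 254.8 and 345.2, then 129.8, 117.9 and 154.8, then 111.7, 121.9 and 99.5 (log2 -1.42, adjusted p = 0.00313), with the same direction on its dimmer probe set (log2 -1.11, adjusted p = 0.0233). It also fell from GD12 to GD13 (adjusted p = 0.0286), as did Sox11 (adjusted p = 0.0256), whose log2 difference from GD12 to GD14 was -1.51 (adjusted p = 0.00142). Sox11 had a mean intensity of 1392, above each of the 37 genes. Ebf2, of the same family as Ebf3, fell from 293.6, 250.3 and 173.0 to 107.7, 126.9 and 90.9 (log2 -1.10, adjusted p = 0.0256), a call that 5 of 9 fits without 1 array kept (up to 0.0912 without GD14 replicate 1). Which cells carried Sox11, Ebf2 and Ebf3 was not tested. In Ebf3 and Sox11 all 9 such fits kept the call between GD12 and GD14, and 3 of 9 kept that between GD12 and GD13 (up to 0.144 for Ebf3 without GD13 replicate 2 and 0.126 for Sox11 without GD13 replicate 1).

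Of 35 other genes of axon growth, adhesion and cytoskeleton 29 had a probe set and 22 were tested, of which 3 fell and 1 rose, with a median log2 of -0.23 over the 29. Those that fell were Nnat, a small membrane protein of neural and other tissue (1590.9, 1518.9 and 1103.8 to 418.3, 375.7 and 405.1, adjusted p = 0.00505), Gng3, a neuronal G protein subunit, and Stmn1, a stathmin of dividing cells. Gng3 had 553.5, 526.8 and 299.0, then 281.7, 355.1 and 186.0, then 155.0, 195.4 and 136.9, with array 3 lowest on each day (log2 -1.45, adjusted p = 0.0336, up to 0.118 without GD12 replicate 1). Stmn1 had a log2 difference of -0.82 (adjusted p = 0.0139, up to 0.0623 without GD12 replicate 1). Thy1, a surface protein of neurons and also of fibroblasts and lymphocytes, rose from 5.1, 6.6 and 5.9 to 72.6, 81.4 and 46.7 (adjusted p = 0.00245). Its GD12 values lay under the filter intensity, so no fold is given.

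Among 27 genes of neuropeptides, hormone processing and transmitter synthesis 19 had a probe set and 14 were tested, of which 1 rose and 0 fell (median log2 0.07 over the 19). It was Pam, the enzyme that amidates peptide hormones, with 64.3, 62.0 and 146.1 on GD12 and 311.8, 243.3 and 276.0 on GD14 (log2 1.68, adjusted p = 0.0256, up to 0.101 without GD14 replicate 1). Over the other alternatives the calls of Ebf2, Gng3, Pam and Stmn1 also ended in some (highest adjusted p 0.082, 0.0548, 0.0641 and 0.352). Over all tested probe sets, 1628 of 9326 had an unadjusted p under 0.05 in limma from GD12 to GD14. In 3 lists 0 genes passed in limma. They were ion channels and transmitter receptors (9 tested, 0 at an unadjusted p under 0.05, median log2 0.02), further synaptic genes (15 tested, 3 at that p, median -0.32) and neurotrophins and their receptors (7 tested, 1 at that p, median -0.12). Their brightest members were the receptor subunit Grik5 (log2 0.01, 95% confidence interval -0.30 to 0.31), the endocytic GTPase Dnm1 (-0.17, -0.73 to 0.39) and the neurotrophic factor Nrtn (0.53, 0.04 to 1.03, adjusted p = 0.249).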

How the data were processed

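The 1-colour arrays gave 1 deposited intensity per probe set, on a linear scale. The values show that arrays were already scaled, since a mean trimmed by 2% at each end came to 150.1 throughout. The image software is not given in the sources used here. The annotation gave 1 symbol for 10833 of 12422 probe sets after 66 controls were left out. limma 3.58.1 (R 4.3.3) fitted 3 day means to all 9 arrays, on log2 values of the deposited intensity with 3 added, about the 10th percentile of all intensities. Adjustment was by Benjamini-Hochberg, over all tested probe sets. The fit was tested on simulated data. Members, lists, tests and alternatives were chosen with earlier results of these data known.

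Genes given per array were those that passed and the first listed and 2 brightest of each role. Stmn2, Nefm, the probe sets of Napb and the third-array summaries were added after values were seen. Of further lists, up to 4 passing genes, or the brightest, were named. Residuals of arrays with the same number correlated at 0.19 to 0.42, against -0.29 to -0.02 for different numbers. The labels do not say what arrays of a number share. The main fit did not use the numbers, and the fit with the number as a block did. Having 3 arrays per day limits the precision. Python 3.11.15, pandas 2.3.3 and matplotlib 3.10.9 made tables and plots.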

Additional observations from a re-analysis of the deposited data

How the results depend on the processing

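The median log2 difference of the 37 genes stayed between -0.86 and -0.35 from GD12 to GD14 and between -0.66 and -0.26 from GD12 to GD13. From GD13 to GD14 it ran from -0.27 to 0.16, the positive value without GD14 replicate 3. These moves were smaller than the SD between arrays of a day (0.30). Counts of called genes moved more. Over all probe sets, 401 were called from GD12 to GD14 and 620 with the replicate number as a block. From GD12 to GD14 the 3 genes called lower became 6 with an added value of 11, 6 with array weights, 5 with a trend and robust variances, 6 without the third array of every day, 0 with only the compared days and 0 to 5 when 1 array was left out. With the replicate number as a block they were 4, and 2 of the 3 calls, Myt1 and Ppp1r17, ended. From GD12 to GD13 the 0 genes called lower became 1 with a trend and robust variances, 2 with array weights and 0 to 1 when 1 array was left out. In the F-test the 0 genes called became 2 with an added value of 11, 1 with a filter at the median, 1 with a trend and robust variances, 5 with array weights, 3 with the replicate number as a block, 1 with the actin ratio as a covariate, 2 without the third arrays and 0 to 2 when 1 array was left out. Over single genes and comparisons, 76 of 3102 alternative values ended a call, 37 made one and 0 turned a called direction. With the mean of a gene's probe sets in place of the brightest, Napb, Myt1, Tubb3 and Isl1 were called from GD12 to GD14 and Mapt was not. Without the filter Elavl3, L1cam, Map1b, Syp and Syt1 were tested too and did not pass, with adjusted p from 0.206 to 0.996 over the 3 comparisons. At their mean intensities signal over background limits what can be seen.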
